A study of Caenorhabditis elegans with 2 samples.

Results

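Divergent promoters are stretches of DNA between a pair of neighbouring genes that are transcribed away from each other, so that 1 stretch can serve both. The 1056 regions described here are those of the 30000 regions in the pooled ChIP-seq list whose summit lay in the promoter window of a minus-strand protein-coding gene and also in that of a plus-strand one to its right. A promoter window reached from 1000 bp upstream of an annotated 5′ end to 200 bp into the gene. Summits within 300 bp of a tRNA, snoRNA, snRNA or miRNA gene were left out. No signal value entered the choice. The 1056 regions fell on 945 gene pairs, and 10 of the 129 optimal ones had more than 1 possible pair, in which case the pair with the closest 5′ ends was used.

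The experiment mapped the MADF-2 protein of *Caenorhabditis elegans* on chromatin in late embryos of mixed sex, 3 hours after synchronisation by bleaching of eggs. All embryos were of strain OP587, with the genotype unc-119(tm4063) III; wgIs587, and carried MADF-2 with a GFP-FLAG tag at its C-terminus, which an anti-GFP antibody precipitated. There were 2 biological replicates of this 1 group, both from whole organisms, so signals of different tissues are mixed and the tagged protein stands in for MADF-2 itself. The authors' filter for reproducibility between replicates (IDR) kept 772 of the 30000 pooled regions, and these are called optimal here. They were the 772 with the highest signal value, the authors' own measure of the strength of a region, from 69.6 upward. Depth of sequencing is unknown, and the control library was not analysed here.

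MADF domains are folds of the Myb and SANT type that bind DNA, known best from the *Drosophila* factor Adf-1. A region between facing genes cannot be assigned to one of them by position alone. The annotated 5′ end of a worm gene is often the point where a spliced leader is joined and not the start of transcription, so all distances are approximate.

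The DNA under 8 of the strongest optimal summits is shown because the base composition and short motifs described further on can be read in it. Each has no annotated exon within 75 bp of the summit. Each is the plus strand of ce11 (WBcel235, RefSeq sequence), 151 bases with the summit in the middle. Capitals mark matches on either strand to the 10 motifs searched and to the word GCGCAC, which was picked after its counts were seen.
grk-1/F19C6.2 (chrX:9999865-10000015): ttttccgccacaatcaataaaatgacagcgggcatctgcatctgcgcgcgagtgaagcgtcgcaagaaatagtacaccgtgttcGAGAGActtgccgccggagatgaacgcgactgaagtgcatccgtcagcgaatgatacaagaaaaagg
rpl-15/K11H12.8 (chrIV:654851-655001): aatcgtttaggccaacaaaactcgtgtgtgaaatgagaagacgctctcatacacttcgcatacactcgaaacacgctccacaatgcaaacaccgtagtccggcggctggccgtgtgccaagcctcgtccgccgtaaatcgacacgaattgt
rnf-121/C16C10.4 (chrIII:4171136-4171286): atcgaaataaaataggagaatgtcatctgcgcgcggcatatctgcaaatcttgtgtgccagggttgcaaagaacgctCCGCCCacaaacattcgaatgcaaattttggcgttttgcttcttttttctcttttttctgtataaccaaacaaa
rpl-20/Y17G9B.5 (chrIV:4749988-4750138): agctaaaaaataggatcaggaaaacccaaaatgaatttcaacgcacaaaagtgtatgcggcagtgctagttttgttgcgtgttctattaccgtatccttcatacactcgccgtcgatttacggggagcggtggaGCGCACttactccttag
nmad-1/hach-1 (chrIII:5555052-5555202): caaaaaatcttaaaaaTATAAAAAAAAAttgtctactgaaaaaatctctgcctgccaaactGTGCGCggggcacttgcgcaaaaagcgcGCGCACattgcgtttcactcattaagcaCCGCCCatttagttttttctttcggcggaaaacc
nrde-2/atad-3 (chrII:10248487-10248637): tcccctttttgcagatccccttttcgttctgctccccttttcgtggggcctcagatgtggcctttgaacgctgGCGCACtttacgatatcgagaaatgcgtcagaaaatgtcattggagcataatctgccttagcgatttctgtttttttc
W03C9.5/mex-1 (chrII:11967673-11967823): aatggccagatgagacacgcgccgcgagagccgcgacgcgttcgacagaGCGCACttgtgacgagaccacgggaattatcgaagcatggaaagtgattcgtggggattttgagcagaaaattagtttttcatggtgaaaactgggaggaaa
F44E5.4/F44E5.5 (chrII:11759381-11759531): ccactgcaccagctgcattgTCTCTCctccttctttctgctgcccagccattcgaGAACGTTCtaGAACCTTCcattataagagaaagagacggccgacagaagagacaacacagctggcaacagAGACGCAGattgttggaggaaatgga
In the sequence of *rnf-121*/*C16C10.4* the GC box GGGCGG, a site type of Sp1-like zinc finger factors, starts 2 bp right of the summit on the minus strand. The sequence of *nmad-1*/*hach-1* has a GC box 42 bp to the right and the word GCGCAC on both sides of the summit. In *F44E5.4*/*F44E5.5*, a facing pair of Hsp70-type chaperone genes, 2 copies of the heat shock element core GAANNTTC start 20 and 10 bp left of the summit. The sequence of *rpl-15*/*K11H12.8* has no match to any of these motifs.

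Regions in divergent promoters were kept as optimal more often than the list as a whole. Of the 1056, 129 were optimal (12.2%, 95% Wilson interval 10.4 to 14.3%), against 2.57% of all pooled regions. In promoter windows without a divergent partner, 225 of 6008 regions were optimal (3.75%, interval 3.29 to 4.26%), and outside coding promoter windows 191 of 22211 were (0.860%). The highest share was that of regions near tRNA, snoRNA, snRNA or miRNA genes, 227 of 725 (31.3%), which made up 29.4% of the optimal list. Divergent promoters thus held 3.52% of the pooled regions and 16.7% of the optimal ones. The median signal value of the 1056 was 29.9 (quartiles 22.6 and 47.6), against 24.96 in all pooled regions and 25.8 in single-gene promoters. Among optimal regions alone the medians were close, 95.8 in divergent promoters and 95.2 overall. Intervals cover counting error only. With 1 group of 2 samples no test over samples was possible, and regions are not replicates, so these differences are given as descriptions.

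Both replicates showed this pattern separately. In the list of replicate 1, which holds 30000 regions, 103 of the 923 regions that met the same positional rule were among its 772 strongest (11.2%, against 2.57% of that list), and 3.81% of single-gene promoter regions were. In the list of replicate 2, which holds 27350 regions, the share was 144 of 1014 (14.2%, against 2.82% of that list), and 3.92% for single-gene promoters. The gap between the promoter classes was larger than the gap between replicates in either class. Of the 129 optimal divergent regions, 128 had an overlapping region in each of the replicate lists. For 80 of them (62.0%) these were among the 772 strongest in both, and for 3 in neither. Those 3 were *trr-1*/*C47D12.2*, *cux-7*/*C07H6.2* and *mel-46*/*lsy-13*, each ranked between 869 and 959 in the replicate lists and named after their values were seen. The optimal region of *Y59E9AL.36*/*nbet-1* had no counterpart in replicate 1. Since the optimal list was built from these lists, the overlap is not independent of it.

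The strongest region lay between *grk-1*, which encodes a kinase that desensitises G protein-coupled receptors, and *F19C6.2*, and it stood apart from the rest. Its signal value was 1036 in the pooled list, 571 in replicate 1 and 481 in replicate 2, the highest of each replicate among divergent regions and at ranks 1 and 3 of the whole replicate lists. The 2 genes are 1727 bp apart at their 5′ ends, the widest gap of the optimal pairs, and the summit was 732 and 995 bp upstream of them. A noncoding RNA gene of the ncRNA, lincRNA or antisense RNA class also lies within 300 bp of this summit. The next region, between *K01G5.10* and *tasp-1*, a threonine protease of the taspase type, had 324 pooled, 172 in replicate 1 and 153 in replicate 2. It lay 73 bp upstream of *tasp-1* and 712 bp upstream of the other gene. Only 5 of the 129 optimal regions had a pooled value above 200, and 71 lay below 100. After the first region the values fell off gradually.

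A few further pairs made up the rest of this upper group. Between *ears-2*, a glutamyl-tRNA synthetase, and *uncp-18* the 5′ ends are 92 bp apart, and the summit lay 38 and 54 bp from them with values of 275 pooled, 132 in replicate 1 and 143 in replicate 2. The region of *atx-2*, the worm ataxin-2 and an RNA-binding protein, and *ecps-1* had 275, 136 and 135 in the same order. That of *idhg-1*, a subunit of isocitrate dehydrogenase, and *mlcd-1*, a malonyl-CoA decarboxylase, had 224, 126 and 96.1. Its summit and that of *atx-2* lay 66 and 67 bp upstream of the plus-strand gene and over 600 bp from the other. The pairs from *K01G5.10*/*tasp-1* to *mlcd-1*/*idhg-1* all ranked 38 or better in replicate 1 and 80 or better in replicate 2.

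Below them the ranks in the replicate lists lay further apart for some pairs. For others they stayed close, such as *rps-20*/*ekl-4* (rank 85 in replicate 1 and 79 in replicate 2) and *W03C9.5*/*mex-1* (ranks 107 and 126). Pairs with wide differences are given next. The region of *rpl-20*, a large-subunit ribosomal protein gene, and *Y17G9B.5* had 60.2 in replicate 1 (rank 282) and 125 in replicate 2 (rank 46), with 187 pooled. That of *rps-19*, a small-subunit ribosomal protein gene, and *hsr-9*, the worm relative of the DNA damage protein 53BP1, had 115 (rank 57) and 68.7 (rank 170), with 183 pooled. The region of *nmad-1*, named for demethylation of N6-methyladenine, with *hach-1* had 73.8 (rank 188) and 109 (rank 62), with 183 pooled. The 2 lists were not scaled to each other, and their medians were 16.2 and 14.6, so ranks and not values are set against each other. All of the 20 strongest pairs were among the 772 strongest of both replicates, at rank 294 or better in replicate 1 and 206 or better in replicate 2.

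**Figure D1:**
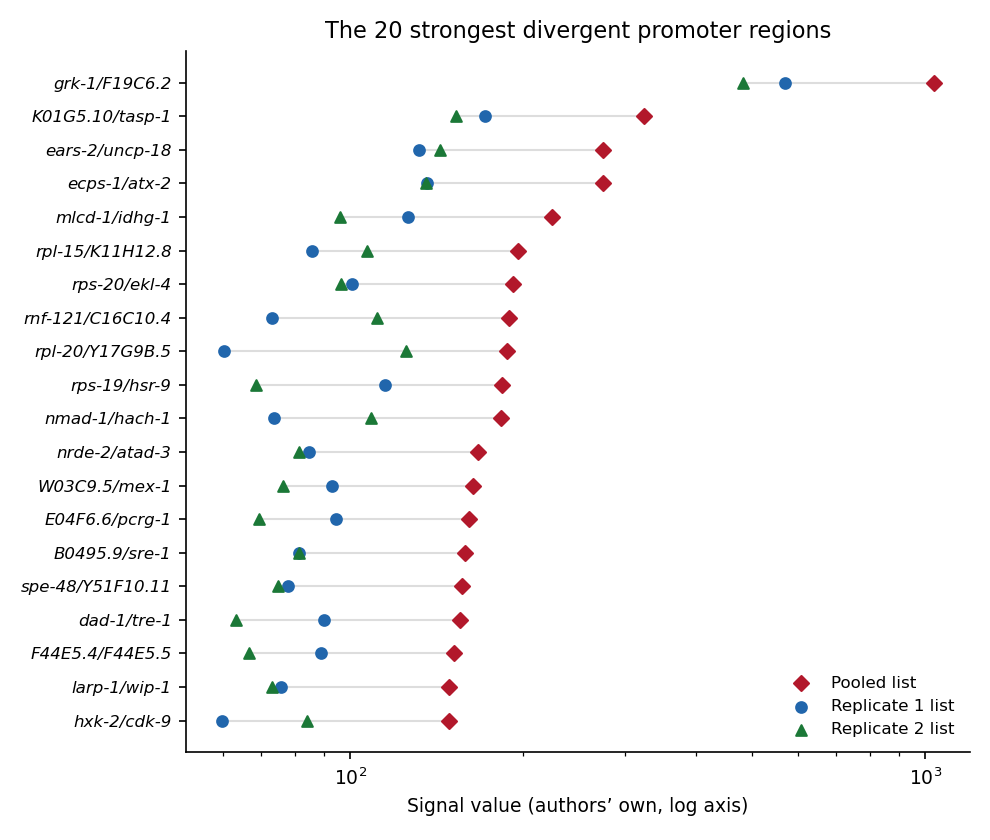
Signal value (the authors' own, log axis) of the 20 strongest optimal regions in divergent promoters, 1 row per gene pair, in the pooled list (diamonds) and in the lists of replicate 1 (circles) and replicate 2 (triangles). The top region, *grk-1*/*F19C6.2*, reached 1036 in the pooled list, and the pooled values of the other 19 run from 324 down to 149.

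**Figure D2:**
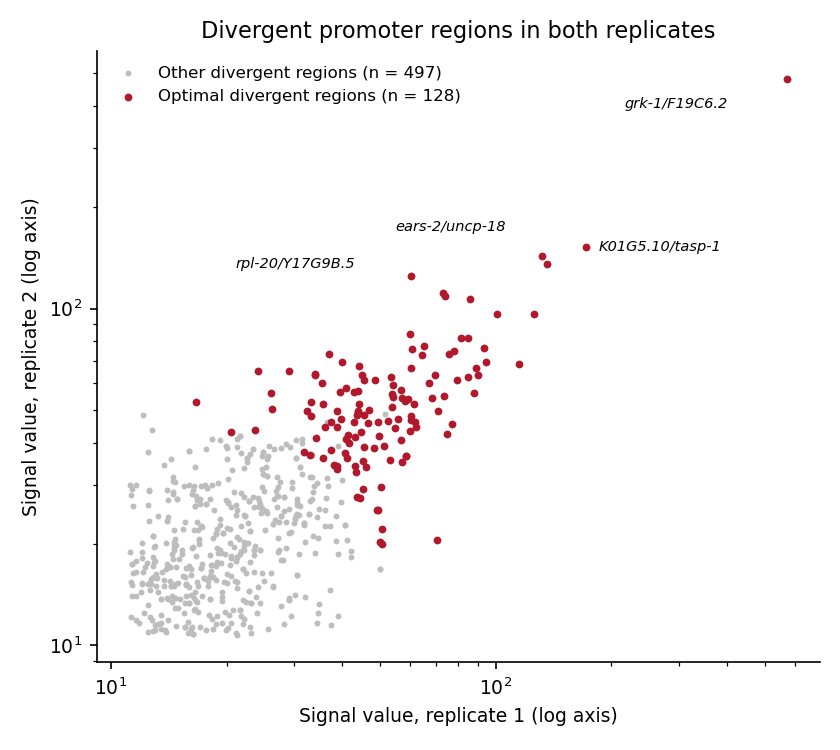
Signal value in replicate 2 against replicate 1 (both log axes) for divergent promoter regions with a counterpart in both lists, 128 optimal (red) and 497 other (grey). Optimal regions had medians of 49.7 in each replicate, and the others 19.4 and 19.2 over all that had a counterpart in the replicate.

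The other members of the 20 strongest serve a range of functions. The summit of *nrde-2*/*atad-3* (pooled signal value 167) lay 429 bp from *atad-3*, a mitochondrial ATPase gene, and 924 bp from *nrde-2*, a nuclear RNA interference factor. That of *W03C9.5*/*mex-1* (164) lay 204 bp from *W03C9.5* and 889 bp from *mex-1*, a zinc finger protein of the germline and early embryo. That of *larp-1*/*wip-1* (149) lay 252 bp from *wip-1* and 737 bp from *larp-1*, a La-related protein. The named RNA-related gene was the farther one in each of these pairs. It was the nearer one for *atx-2*, described above, with the summit 67 bp from *atx-2* and 771 bp from *ecps-1*. The summit of *hxk-2*/*cdk-9* (149) lay 147 bp from *cdk-9*, a transcription elongation kinase gene, and 270.0 bp from the hexokinase gene *hxk-2*. That of *dad-1*/*tre-1* (155) lay 22 bp from the trehalase gene *tre-1* and 417 bp from *dad-1*, a subunit of oligosaccharyltransferase. The pair *E04F6.6*/*pcrg-1* had 161, *B0495.9*/*sre-1* had 159 with the summit 56 bp from *B0495.9* and 938 bp from the chemoreceptor gene, and *spe-48*/*Y51F10.11* had 156. The near-identical chaperone genes *F44E5.4* and *F44E5.5* shared a summit of 151, 145 and 206 bp upstream of them. The regions of *rps-20*/*ekl-4* had 192, of *rpl-15*/*K11H12.8* 196 and of *rnf-121*/*C16C10.4* 188. No source used here says how reads that match several copies of a gene were placed.

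Over all 128 optimal divergent regions with both values, Spearman's rho between replicates was 0.42, and over the 497 other ones it was 0.37. Over all 625 divergent regions with both values it was 0.62; each of the former sets covers only part of the range of pooled signal values. These are descriptions across sites that share libraries. Of the other regions, 17 overlap an optimal region and so can share its replicate values.

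Summits of optimal regions lay between both 5′ ends, at a moderate distance from the nearer one. Of the 129, 117 (90.7%) were between the 5′ ends, against 681 of 927 (73.5%) of the other divergent regions. The median distance to the nearer 5′ end was 152 bp (quartiles 67.0 and 219), and to the farther one 390 bp (quartiles 230.0 and 557). For the other regions the medians were 96.0 bp (quartiles -6.5 and 223.5) and 456 bp. Summits inside a gene enter as values of 0 or below, which holds for 246 of the 927 other regions and 12 of the 129 optimal ones. The lower median of the other regions therefore does not mean that their summits lay closer to a 5′ end. Of the optimal summits, 60 were nearer to the minus-strand gene and 69 to the plus-strand one. With the space between the 5′ ends cut into 5 equal steps, the optimal share was 15.8, 13.0, 14.5, 18.6 and 10.2% from the minus-strand to the plus-strand gene, with intervals that all overlap. It was 3.97% for summits inside the minus-strand gene and 5.30% inside the plus-strand one. The 12 optimal summits not between the 5′ ends were also the only ones in an annotated exon of a protein-coding gene, untranslated parts included. They were 9.30% of the optimal ones, and 24.8% of all divergent regions lay in such an exon. This is thus the same set seen again and not a second result.

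**Figure D3:**
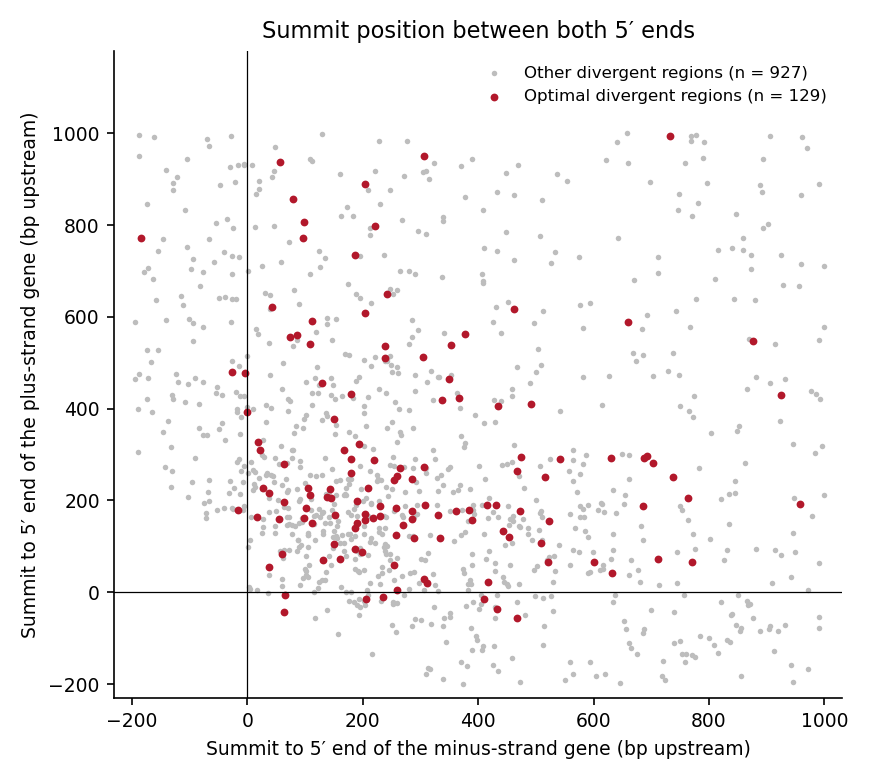
Distance of each summit upstream of the 5′ end of the minus-strand gene (horizontal axis, bp) and of the plus-strand gene (vertical axis, bp), with values below 0 inside a gene, for 129 optimal (red) and 927 other (grey) divergent promoter regions. Of the optimal summits, 117 fall in the upper right part, between both 5′ ends, and 51 lie within 300 bp of both.

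Divergent and single-gene promoters were next compared at like distances from the nearest 5′ end. From over 100 to 200 bp upstream of the nearest 5′ end, 48 of 241 divergent regions were optimal (19.9%, interval 15.4 to 25.4%), against 56 of 694 in single-gene promoters (8.07%, interval 6.27 to 10.3%). Up to 100 bp the shares were 12.5% and 2.76%, and from over 200 to 300 bp 16.8% and 7.29%. From over 300 to 500 bp they were 12.1% and 6.08%, and from over 500 to 1000 bp 4.11% (3 of 73) and 2.05%. The intervals overlap in both of these steps. The divergent share was the higher one in all 6 steps.

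The share also differed with the width of the space between the 5′ ends. The annotation holds 2560 neighbouring divergent pairs with 5′ ends up to 2000 bp apart, and 127 of these (4.96%, interval 4.19 to 5.87%) had an optimal region. Pairs over 300 to 600 bp apart had one most often, 55 of 615 (8.94%, interval 6.94 to 11.5%). Pairs up to 300 bp apart had 21 of 508 (4.13%), those over 600 to 1000 bp 43 of 622 (6.91%), and those over 1000 bp 8 of 815 (0.982%). In the last group the rule leaves out summits near 1 of the 5′ ends, which are over 1000 bp upstream of the other. Counted by gene, 246 of the 3490 genes in neighbouring divergent pairs up to 1000 bp apart had an optimal summit in their window (7.05%, interval 6.25 to 7.95%), and 252 of the other 16483 protein-coding genes did (1.53%, interval 1.35 to 1.73%). Genes of a pair share summits, so these counts are not independent.

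Divergent regions were rare on the X chromosome, which also has few such pairs. The X held 46 of the 1056, or 0.920% of its pooled regions, and 178 of the 2560 annotated pairs. On the autosomes 3.76 to 4.34% of the pooled regions were divergent. The optimal share was 4 of 46 on X (8.70%, interval 3.43 to 20.3%), and between 10.5% on chromosome V and 15.0% on chromosome IV. All of these exceeded the share over all pooled regions of the same chromosome, which was 3.54% on X and 1.90 to 2.67% on the others. The interval for X holds its 3.54%.

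Optimal summits sat in DNA of higher GC than other summits. In windows of 50 bp to each side of the summit the median GC was 50.5% for optimal divergent regions and 42.6% for the others, and the median number of CpG was 8 and 5. In single-gene promoters the medians were the same for GC, 50.5 and 42.6%. The GC rise was narrow: the mean was 54.0 ± 11.2% (SD, n = 129) in the 25 bp at the optimal summits, 35.01 ± 14.4% 200 bp to the left and 35.9 ± 12.4% 200 bp to the right. At the other divergent summits it was 43.3 ± 13.9% (SD, n = 927). The optimal share of divergent regions went from 1.95% in windows of up to 35% GC to 31.3% in those over 50% (72 of 230, interval 25.7 to 37.6%). In single-gene promoters it went from 0.746% to 9.80%. At each step of GC the divergent share was the higher one, though in the lowest step (4 of 205 and 8 of 1073) the intervals overlap. The part that GC has in the recovery of DNA during library preparation was not tested.

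**Figure D4:**
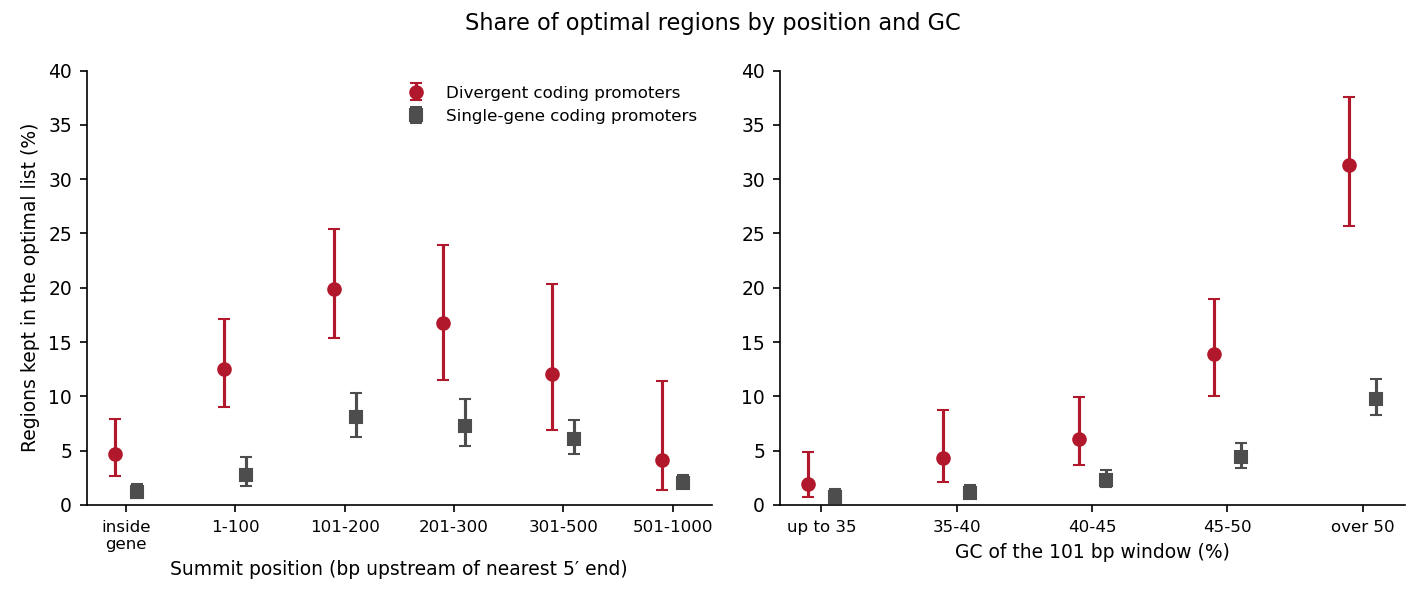
Percent of regions kept in the optimal list for divergent (red circles) and single-gene (grey squares) coding promoters, by bp upstream of the nearest 5′ end (left) and by GC of the window around the summit (right), with 95% Wilson intervals as bars. The divergent share peaks at 19.9% from over 100 to 200 bp and reaches 31.3% in windows over 50% GC.

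**Figure D5:**
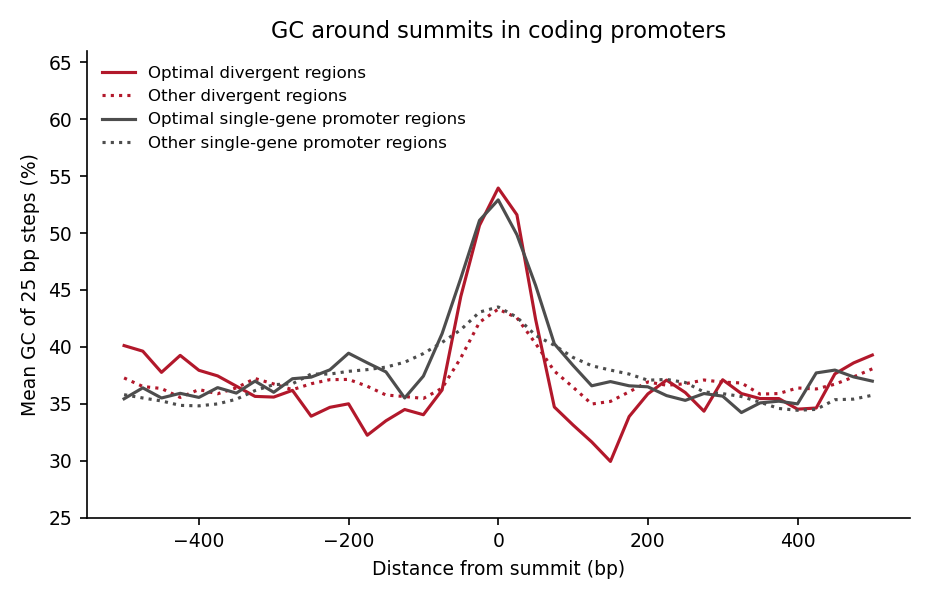
Mean GC (percent) of 25 bp steps by distance from the summit in bp, for optimal (solid) and other (dotted) regions in divergent (red) and single-gene (grey) coding promoters. Both optimal sets peak at the summit, at 54.0 and 52.9%, and the other sets at 43.3 and 43.5%.

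The 10 motifs were searched in these windows on both strands. The GC box GGGCGG was in 23 of 129 (17.8%, interval 12.2 to 25.3%), against 4.21% of the other divergent regions, 9.78% of optimal single-gene regions, 3.90% of all pooled regions and 2.55% of equal windows centred 150 bp upstream of every coding 5′ end. Within windows of over 45% GC it was in 20.2% of optimal and 8.43% of other divergent regions. The repeat GAGAGA was in 18.6% and 12.1%, and over 45% GC in 20.2% and 17.98%, with overlapping intervals in both cases. It was in 24.4% of optimal single-gene regions, 23.3% of all optimal regions and 8.42% of all promoter windows. CTGCGTCT was in 6.202% and 2.48%, also with overlapping intervals, in 18 of 225 optimal single-gene regions and in 1.48% of all promoter windows. AT-rich motifs were scarcer in optimal regions: the TATA box TATAAA was in 0.775% against 7.12%, the GATA word TGATAA in 0.775% against 5.29% and the T block TTTTTTTT in 1.55% against 6.58%. The intervals of TGATAA and of TTTTTTTT overlap. Over 45% GC the shares were closer, 0.962% against 3.65% for TATAAA, 0% against 3.37% for TGATAA and 0.962% against 2.53% for TTTTTTTT, and the intervals of all of them overlap. Their shares of all pooled regions were 5.53, 5.87 and 6.57%, and of all promoter windows 13.4, 11.8 and 13.4%. The E-box CACGTG was in 3.10% and 2.05%, and the heat shock element core GAANNTTC in 5.43% and 5.83%, with intervals that overlap. In all promoter windows they were in 1.79% and 6.21%. GGTTCGA, the start of the B box inside tRNA genes, was in 1 of 129, 1 of 927 other divergent regions and 0.889% of optimal single-gene regions. It was in 8.94% of all optimal regions, of which 227 lie within 300 bp of a tRNA, snoRNA, snRNA or miRNA gene. The rule left such summits out of the divergent regions, so the 8.94% is not a like comparison. GGCGGGAA, an E2F-like word that can overlap the GC box, was in 0 of 129, which allows up to 2.89% (Wilson limit).

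The word GCGCAC had the widest difference of all 2080 words of 6 letters, by a count made after the data were seen. It was in 35 of 129 optimal divergent windows (27.1%) and in 7.98% of the others. In single-gene promoters, which were not used to pick it, it was in 14.7% of optimal and 3.80% of other regions. Over 45% GC the divergent shares were 31.7% and 11.8%. The printed sequences of *rpl-20*/*Y17G9B.5*, *nmad-1*/*hach-1*, *nrde-2*/*atad-3* and *W03C9.5*/*mex-1* carry it.

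Ribosomal protein and chaperone genes had optimal regions more often than the genes of divergent pairs as a whole. The 1056 regions involve 1859 genes, of which 258 (13.9%) had an optimal one. Of 43 ribosomal protein genes among these, 14 did (32.6%, interval 20.5 to 47.5%). The strongest after those named above were *rps-1* (140, 252 bp upstream), *rps-23* (127, 264 bp upstream) and *rpl-12* (114, at the 5′ end itself). The summit lay a median of 259.5 bp from the ribosomal protein gene, with a range of 0 to 735 bp, and was nearer to it than to its partner in 8 of 14. *rpl-39* and *rps-30* share 1 summit, 255 and 244 bp from them (signal value 71.8). Chaperone genes had 8 of 21 (38.1%, interval 20.8 to 59.1%). These were *dnj-29* (136), *hsp-60* (127), *cct-8* (126) and *cct-7* (124), with *dnj-13* (113), *dnj-19*, *dnj-28* and *dnj-14*. The list goes by symbol, so it leaves out the Hsp70-type genes *F44E5.4* and *F44E5.5*, whose shared optimal summit had 151. *hsp-60* encodes the mitochondrial chaperonin, the *cct* genes subunits of the cytosolic one, and the *dnj* genes DnaJ cochaperones. The summit was nearer to the chaperone gene than to its partner in 3 of 8. Translation factors had 4 of 15 (26.7%, interval 10.9 to 51.9%, which holds the 13.9%), *iff-2* (124), *eef-2* (112), *eif-3.E* (99.4) and *eif-3.D*.

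Splicing, chromatin, basal transcription and histone genes had shares above 13.9%, but all of their intervals hold that value. Splicing factors had 6 of 21 (28.6%, interval 13.8 to 49.96%). *prp-19* (145), a ubiquitin ligase of the spliceosome, and *snr-1* (136), a core snRNP protein, led them. The summit lay 632 bp from *prp-19* and 43 bp from its partner *K10D2.5*, and 432 bp from *snr-1* and 179 bp from *snx-13*. *rsp-1* and *rsp-2*, which encode SR proteins, face each other across 1 optimal summit (94.9). The summit was nearer to the splicing gene than to its partner in 3 of 6. Chromatin genes had 5 of 20 (interval 11.2 to 46.9%), with the summit nearer to the chromatin gene in 1 of 5: the retinoblastoma homologue *lin-35* (129), *set-21* (112), which faces *rpl-7A*, the histone demethylase gene *jmjd-1.2* (103), *mrg-1* (102) and *set-16*. Basal transcription genes had 4 of 17 (interval 9.55 to 47.3%), led by *cdk-9*, followed by *mdt-19* (107), *taf-4* (105) and *mdt-26* (100.4). Histone genes had 5 of 21 (23.8%, interval 10.6 to 45.1%), from the pairs *his-67*/*his-68* (142) and *his-61*/*his-62* (92.0) and from *htz-1*. The other 8 pairs of facing histone genes with a region had values of 18.3 to 49.95. Histone genes have near-identical copies, so where their reads were placed is uncertain.

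Other lists of more than 9 genes lay closer to the 13.9% of all these genes or below it, in the pooled list. By single replicate lists, 12.5% of all genes of divergent pairs had a region among the 772 strongest in replicate 1 and 16.1% in replicate 2. Vesicle transport genes had 6 of 36 (16.7%) and 7 of 27 (25.9%) by the list of replicate 1 alone, with *snx-13* (136) and *vps-51* (129) the strongest. Mitochondrial ribosomal protein genes had 3 of 21 (14.3%), with *mrpl-39* (95.6) the strongest. Cell cycle and replication genes had 3 of 51 (5.88%, interval 2.02 to 15.9%), namely *knl-1*, *cye-1* and *cdk-9*. The transcription elongation kinase gene *cdk-9* is in this list by its symbol only and is also counted among the basal transcription genes. Oxidative phosphorylation genes had 1 of 19, *atp-1*. Proteasome genes had 0 of 13 (Wilson limit 22.8%), but 1 of 13 by the list of replicate 1 alone and 2 of 13 by that of replicate 2. C-type lectin genes had 0 of 12 (limit 24.2%). Chemoreceptor genes had 3 of 31 (9.68%) and F-box and BTB genes 4 of 37 (10.8%) and 4 of 23 (17.4%) by the list of replicate 2 alone, with *math-33* (115.6) the strongest. Of 1209 annotated chemoreceptor genes only these 31 had any divergent region. The remaining lists had 9 or fewer genes here, with at most 2 optimal. Their shares ran from 0 of 5 (neuropeptides and insulins) to 1 of 2 (vacuolar ATPase, and also homeodomain), with 2 of 6 for nuclear hormone receptors. They are too small to be set against the 13.9%.

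At the upstream edge of the window, in its last 100 bp from the farther 5′ end, 5 of 92 regions were optimal (5.4%). The share of all divergent regions was 12.2%. Of these 5, the *grk-1* region was the strongest and *C02F5.10*/*knl-1* (77.1) the weakest. In the next 100 bp, just outside, 3 of 71 were (4.2%): *K12H4.6*/*K12H4.5* (576), *nra-3*/*tsp-21* (147) and *sec-61.G*/*F32D8.7* (142). Of 25 divergent summits left out for a small RNA gene within 300 bp, 10 were optimal (40%), against 31.3% of all pooled regions near such genes. These 10 ran from *gcy-33*/*cpr-9* (243) to *attf-2*/*F09G2.2* (78.6), and they include *eef-1A.1*/*rfc-4* (146). In the 100 bp beyond that distance 2 of 5 were (40%, of few regions), *Y87G2A.18*/*Y87G2A.1* (124) and *rpl-7A*/*set-21* (112).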

How the data were processed

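Regions of MADF-2 ChIP-seq were taken from 4 deposited lists in the ce11 build: 1 for each of 2 replicates, 1 for both pooled, and the optimal list. The deposited file records say that alignments and a control alignment gave the first 3 lists. The aligner, the caller, its settings and the depth were not given in the sources used here. Each deposited signal value is the authors' own, of unstated scale, and regions were ranked within a list only. The authors' −log10 q-value was not used for ranking. Column 10 gave the summit. Genes came from Ensembl release 115 and sequence from RefSeq (both WBcel235, the assembly of ce11). The ce10 lists were not used here.

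Shares, Wilson intervals and medians were computed in Python 3.11.15 with pandas 2.3.3. The placement of summits was tested on simulated data and differed from a direct count in 0 of 3000 summits. No p-value was computed. Named pairs are the 20 strongest optimal ones, the strongest of each gene list with 3 or more optimal genes, and those at the 1000 bp and 300 bp thresholds. Sequences from chromosome I were not printed. Other genes were named after their values were seen. Gene lists go by symbol, and a full symbol in a list counts as that gene alone. The regions, lists and motifs were chosen with earlier results of these data known.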

Additional observations from a re-analysis of the deposited data

How the results depend on the processing

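The share of optimal divergent regions ranged from 11.2 to 14.2% with 1 replicate left out. It was 6.35% with the strongest 386 of the optimal list, which calls fewer regions, 15.2% with windows of 500 bp upstream to 100 bp downstream, 7.29% with windows of 2000 bp upstream to 500 bp downstream, 14.7% for summits between both 5′ ends alone, and 22.6% for windows over 45% GC, a setting chosen after seeing the data. Merging overlapping regions gave 13.7%, and the small RNA distance 11.9 to 12.9%. In all 9 settings compared, the divergent share was 2.63 to 3.89 times that of single-gene promoters, and over 45% GC the shares were 22.6 and 7.12%. With 1 replicate left out, annotated pairs with an optimal region ranged from 3.98 to 5.51%, and the strongest 386 gave 2.62%. The same omission gave 1.16 to 1.23 for the median signal value over that of its list (1.20 pooled), 90.3 to 91.3% for summits between the 5′ ends, 17.4 to 20.4% for the GC box and 33.3 to 35.9% for ribosomal protein genes. Counting only the gene nearer to the summit gave 44.4% for ribosomal protein genes, 12.5% for chromatin (1 of 8), 10.5% for vesicle transport and 4.76% for F-box and BTB genes, against 12.85% of all genes. A GC box search 100 bp to each side gave 24.8% (7.88% in other divergent regions), and replicate overlap by summits within 100 bp gave 97.7%. Adding genes named *ndu*, after the data were seen, gave 10.3% for oxidative phosphorylation. The ratios of shares hold for these lists, whose depth is unknown. No paired analysis was possible because there is only 1 group.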

Other observations

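The word of 8 letters with the widest difference between optimal and other divergent regions, out of 32896, was CTCCGCCC, which contains the GC box. It was in 14 of 129 windows (10.9%) and in 1.73% of the other divergent regions, 0.893% of all pooled regions and 3.56% of optimal single-gene regions. AAGTGCGC, which contains the reverse complement of GCGCAC, was next, with 13 of 129 (10.1%), 2.27% of the others, 0.560% of all pooled regions and 5.78% of optimal single-gene regions. In optimal regions near tRNA, snoRNA, snRNA or miRNA genes these words were in 1 and 0 of 227. They were picked for their difference, so the values are a description.

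Noncoding RNA genes of other classes (ncRNA, lincRNA and antisense RNA) lay within 300 bp of 19 of the 129 optimal divergent summits (14.7%). For the other divergent regions the share was 10.6%, for optimal single-gene regions 18.2% and for other single-gene regions 9.41%. It was 30.1% of all optimal regions. These include the optimal regions near tRNA, snoRNA, snRNA or miRNA genes, which both promoter sets leave out and of which 56.4% had one.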
